A study of Homo sapiens with 4 samples.

Results

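The genes described here are the receptor-regulated SMADs SMAD1, SMAD5 and SMAD9 of the BMP branch and SMAD2 and SMAD3 of the TGF-β branch, together with the common partner SMAD4. They are 6 of the 58302 genes listed in the RNA-seq tables, and all 6 were among the 16181 genes that passed the filter on low counts. The members were chosen by name with their levels, the SMAD9 share of the BMP-branch level and their dox against no dox changes already known, so those values are given as a description. The fitted changes of the members, their intervals and the call of SMAD9 come from the fit across all genes and are not used as a test of the members. The inhibitory SMADs, SMAD6 and SMAD7, were not members and are described with the genes that act on SMADs.

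The samples were MIB1-iKO cells of NCI-H838, an established line from a human lung cancer of the non-small cell type, in which doxycycline (dox) switches on Cas9 so that an MIB1 guide RNA can direct editing. MIB1 encodes a ubiquitin ligase. The 2 no dox samples and the 2 dox samples (0.5 µg/mL) were all collected at day 3, under basal BMP signaling, and every sample carried the same inducible editing system. The engineered line was grown from single cells according to the study's methods, the labels do not say which guide it carried, and there was no dox-treated line without an MIB1 guide among these samples. An effect of dox or of Cas9 itself therefore cannot be told apart from the loss of MIB1. The study describes the 2 samples of a group as biological replicates, and each SD below is the spread between them, while the SE and interval of a fitted change are limma's moderated ones. Because this is bulk RNA, fewer cells of a kind and less RNA per cell cannot be told apart.

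Ligands of the TGF-β superfamily bind paired serine/threonine kinase receptors, which phosphorylate the receptor-regulated SMADs at their C terminus. SMAD1, SMAD5 and SMAD9 are the substrates of the BMP type I receptors, and SMAD2 and SMAD3 are those of the TGF-β and activin type I receptors. The phosphorylated proteins assemble with SMAD4, accumulate in the nucleus and regulate transcription with other DNA-binding proteins. The gene of SMAD9, also called SMAD8, is itself a known target of BMP signaling, and its protein is known as a weaker activator than SMAD1 and SMAD5 that can restrain the pathway. RNA levels do not show the phosphorylation by which these proteins are activated.

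The libraries held between 15943025 and 24398411 reads over genes, and both dox libraries were shallower than both no dox libraries. The label check held in every library, with 598 and 588 MIB1 reads in the no dox samples and 90 and 59 in the dox samples. The summed RPKM (reads scaled by gene model length and by sequencing depth) of the epithelial markers EPCAM, KRT8, KRT18, KRT19 and CDH1 ranged from 67.1 to 91.5 and was lower in both dox libraries. That sum was carried by KRT8 and KRT18, which were lower in both dox libraries, while EPCAM and CDH1 were higher in both. Their part in the values below was not tested. KRT19 and the lung lineage genes NKX2-1, SFTPB and SCGB1A1 had 0 reads, and 0 of 5 lung epithelial markers reached 10 reads in every library. PTPRC, the haematopoietic marker, also had 0 reads. Of the fibroblast markers, COL1A1 had 89 and 82 reads in the no dox samples and 22 and 83 in the dox samples. COL3A1, the other, had at most 2 in any library. The endothelial markers PECAM1 and CDH5 had at most 10 and 5 reads in any library.

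The 6 genes lie on 5 chromosomes (GENCODE release 44, GRCh38). SMAD1 (ENSG00000170365) lies at chr4:145481194-145559176 on the plus strand and SMAD5 (ENSG00000113658) at chr5:136132845-136188747 on the plus strand. SMAD9 (ENSG00000120693) lies at chr13:36844831-36920887 on the minus strand. SMAD2 (ENSG00000175387) lies at chr18:47808957-47931146 on the minus strand, and SMAD4 (ENSG00000141646) at chr18:51028528-51085045 on the plus strand, on the chromosome that also holds MIB1. SMAD3 (ENSG00000166949) lies at chr15:67063763-67195173 on the plus strand.

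The coding sequences followed the division into branches. Between SMAD1 and SMAD5 76.7% of aligned coding bases were identical, against 73.4% between SMAD1 and SMAD9 and 72.3% between SMAD5 and SMAD9. SMAD2 and SMAD3 were identical at 75.6%. Across the branches the identity ranged from 64.8% to 68.2%, and SMAD4 was identical to the other 5 at 57.4% to 60%. Since reads were 50 bases long, each canonical transcript was scanned for 50-base windows within 2 mismatches of another SMAD, SMAD6 and SMAD7 included. SMAD1, SMAD5 and SMAD3 had 0 such windows. SMAD9 had 28 of 5509, SMAD2 22 of 34577 and SMAD4 6 of 8723, and 0 of these touched coding sequence. At this read length very little of the canonical transcripts could exchange reads within the family in the same orientation. Matches in the opposite orientation were not scanned within this mismatch limit.

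The stretch upstream of SMAD9 is shown because SMAD9 is the member whose level differed most between the groups. The window holds the 250 bases before the start of the canonical transcript (RefSeq, GRCh38.p14, chr13:36920239-36920488, minus strand). It lies before the start of 3 annotated SMAD9 transcripts and in an intron of a transcript without an annotated coding sequence whose first exon is at chr13:36920635-36920887, and 0 of its bases are exonic in SMAD9. Capitals mark the match to CACGTG, the letters of an E-box, which begins 178 bases before the start.
SMAD9 upstream window: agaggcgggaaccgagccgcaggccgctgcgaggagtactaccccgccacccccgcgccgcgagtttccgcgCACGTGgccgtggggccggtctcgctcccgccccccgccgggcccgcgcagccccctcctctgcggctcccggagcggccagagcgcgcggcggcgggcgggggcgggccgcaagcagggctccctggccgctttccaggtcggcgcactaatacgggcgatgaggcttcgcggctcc
The letters searched, on both strands of such windows, were 5 motifs. The GC-rich element known to be read by BMP-branch SMADs, spelled GGCGCC, was held by 16.4% of 35116 promoters. A longer form that contains it, spelled TGGCGCC, was held by 4.64% of them. The palindromic SMAD element, spelled GTCTAGAC, was held by 0.182%. The shorter SMAD element, spelled CAGACA, was held by 13.6%, and the E-box by 6.34%. The SMAD9 window, in which 78.4% of the bases were guanine or cytosine, held the E-box and none of the other motifs. The single SMAD5 window held 0 of the 5. Both SMAD2 windows held the GC-rich element in its longer form, the single SMAD4 window held the shorter form, and the first SMAD3 window held the shorter form and the E-box. Of the 5 SMAD1 windows 1 held both the shorter and the longer form, 1 held the shorter form alone and 1 held the E-box, and the shorter SMAD element was in 1 other SMAD3 window. A match is a match of letters only, and a missing match says only that these letters were not in this window.

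SMAD1, a main carrier of BMP signals, was counted at 401 and 455 reads in the no dox samples and at 336 and 399 in the dox samples. On the RPKM scale it stood at 7.30 and 8.89 in the no dox samples and at 9.43 and 9.41 in the dox samples, or 8.10 ± 1.13 against 9.42 ± 0.00992 (SD, n = 2). Both dox samples were above both no dox samples, but no dox replicate 2 was much closer to the dox samples than to no dox replicate 1. The fitted log2 fold change of dox over no dox was 0.25 ± 0.15 (SE, limma), with a 95% interval from -0.08 to 0.58. Without no dox replicate 1 it was 0.10, so the size of the SMAD1 difference rested on that sample.

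SMAD5, which acts beside SMAD1, was counted at 1059 and 1013 reads in the no dox samples and at 639 and 855 in the dox samples, in shallower libraries. In RPKM it stood at 6.43 and 6.60 in the no dox samples and at 5.98 and 6.72 in the dox samples, so the dox samples lay on either side of the no dox samples. The means were 6.51 ± 0.122 and 6.35 ± 0.529. The log2 fold change was -0.01 ± 0.13, with an interval from -0.28 to 0.27. With 2 samples per group a SMAD5 difference smaller than that interval could not be resolved.

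SMAD9 had the fewest reads of the 6 genes in every library. It was counted at 20 and 24 reads in the no dox samples and at 60 and 96 in the dox samples. The exact Poisson 95% intervals of these counts were 12.2 to 30.9, 15.4 to 35.7, 45.8 to 77.2 and 77.8 to 117, in that order. These intervals cover counting error only, because PCR copies are not independent molecules. They describe the precision of each count and do not test the difference that was in view when SMAD9 was chosen.

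The RPKM of SMAD9 was 0.152 and 0.196 in the no dox samples against 0.704 and 0.947 in the dox samples. The groups did not overlap, and the dox samples also lay further apart than the no dox samples. The means were 0.174 ± 0.0310 and 0.826 ± 0.172, a 4.74-fold ratio. On the log2 scale the fitted change was 2.20 ± 0.35, with an interval from 1.45 to 2.95. Leaving out 1 sample at a time kept the estimate between 1.95 and 2.46. SMAD9 also stayed the lowest of the 6 genes with dox, below the lowest SMAD3 value of 1.43 RPKM.

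SMAD2, which carries TGF-β and activin signals, had the most reads of the 6 genes, with 5915 and 5087 in the no dox samples and 3907 and 4288 in the dox samples. In RPKM it stood at 7.13 and 6.58 in the no dox samples and at 7.26 and 6.70 in the dox samples, and the groups overlapped. The log2 fold change was 0.03 ± 0.10, with an interval from -0.18 to 0.25, the narrowest of the 6. On the quantile-normalized log2 CPM scale used for the fit, SMAD2 stood at 7.92 in both no dox samples and at 7.94 and 7.98 in the dox samples, so there the groups did not overlap although the samples lay very close together.

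SMAD3, the DNA-binding partner of SMAD2 in the same branch, was counted at 308 and 307 reads in the no dox samples and at 222 and 188 in the dox samples. In RPKM it stood at 1.81 and 1.94 in the no dox samples and at 2.01 and 1.43 in the dox samples. The dox samples thus held both the highest and the lowest SMAD3 value. The log2 fold change was -0.13 ± 0.19, with an interval from -0.53 to 0.27, and the estimate changed sign to 0.12 without dox replicate 2.

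SMAD4, the partner shared by both branches, was counted at 1589 and 1420 reads in the no dox samples and at 881 and 1202 in the dox samples. In RPKM it stood at 7.59 and 7.28 in the no dox samples and at 6.49 and 7.45 in the dox samples, so dox replicate 1 was low and dox replicate 2 lay between the no dox samples. The log2 fold change was -0.06 ± 0.13, with an interval from -0.32 to 0.21, and the estimate was 0.06 without dox replicate 1. The lowest SMAD5 value was also that of dox replicate 1.

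**Figure D1:**
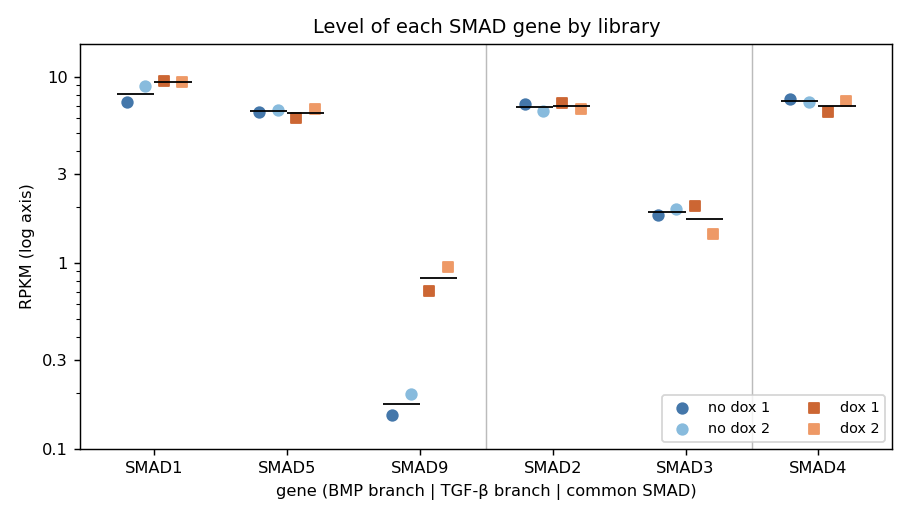
RPKM of each SMAD gene on a logarithmic axis, with 1 point per library (circles, no dox; squares, dox) and a black line at the mean of each group of 2. The SMAD9 points without dox lie at 0.152 and 0.196 and those with dox at 0.704 and 0.947, while the points of SMAD5, SMAD2, SMAD3 and SMAD4 overlap between the groups.

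Genes counted as called had both an adjusted p up to 0.05 (limma, Benjamini-Hochberg over all genes tested) and a change of 2-fold or more. By this rule SMAD9 was among the genes called and the other 5 members were not, 1 of 6, where 0.0371% of all genes tested were called. In the quantile-normalized log2 CPM of the fit the groups did not overlap for SMAD1, SMAD9 and SMAD2, 3 of 6. On that scale 38.6% of all genes tested did not overlap. SMAD9 was no longer called when any 1 of the 4 samples was left out, when low genes were not filtered, or on the log2 RPKM scales, and in each of these fits 0 genes were called. Nothing is read from the counts of members, because the same contrast was in view when the members were chosen.

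**Figure D2:**
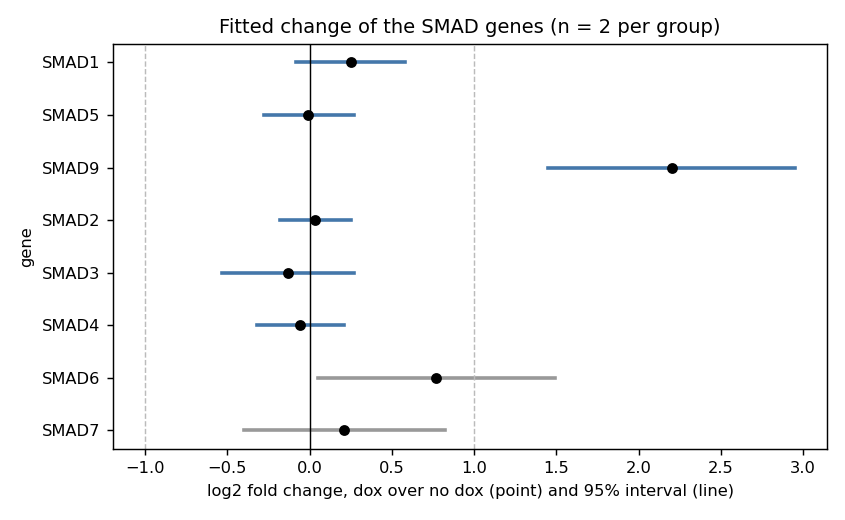
Fitted log2 fold change of dox over no dox (points) with 95% intervals (lines) for the 6 SMAD genes and, in gray, the inhibitory SMAD6 and SMAD7. Dashed lines mark 2-fold. The SMAD9 point lies at 2.20 with an interval from 1.45 to 2.95, and the points of the other 5 members lie between -0.13 and 0.25.

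By mean RPKM over the 4 libraries the order was SMAD1 (8.76), SMAD4 (7.2), SMAD2 (6.92), SMAD5 (6.43), SMAD3 (1.8) and SMAD9 (0.5). The range of SMAD4, 6.49 to 7.59, overlapped those of its neighbours SMAD1 (7.3 to 9.43) and SMAD2 (6.58 to 7.26), and SMAD2 overlapped SMAD5 (5.98 to 6.72). These neighbours did not differ beyond their spread. The ranges of SMAD3 (1.43 to 2.01) and SMAD9 (0.152 to 0.947) stood clear of each other and of the rest.

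The order of the leading 4 depended on the gene length behind the RPKM. The canonical transcripts were 3002 bases long for SMAD1, 7013 for SMAD5, 5558 for SMAD9, 34626 for SMAD2, 6464 for SMAD3 and 8772 for SMAD4. The lengths implied by the authors' RPKM, relative to that of SMAD9, were 0.418 for SMAD1 and 6.31 for SMAD2. With the canonical length SMAD4 led at 7.35 on the same scale, ahead of SMAD2 at 7.07. With the length of all annotated exons SMAD2 led at 6.72, and SMAD1 came at rank 4 with 2.9. Scaled by coding length alone, which ignores the very long noncoding part of SMAD2, that gene led by far at 175, followed by SMAD4 at 38.9. SMAD3 kept rank 5 and SMAD9 rank 6 under each of the 5 length choices.

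**Figure D3:**
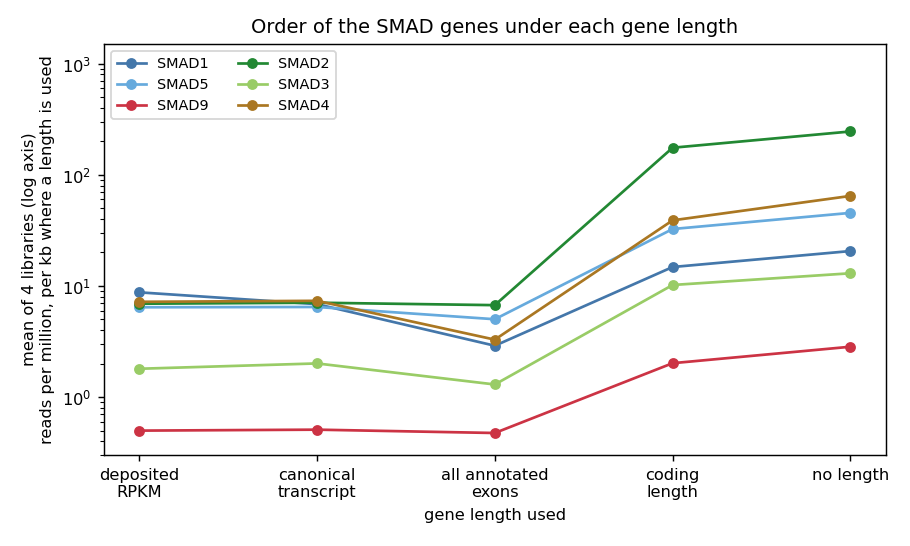
Mean level of each SMAD gene over the 4 libraries on a logarithmic axis, under the authors' RPKM and under depth-scaled reads divided by the canonical transcript, by all annotated exons, by the coding length, or not divided by a length. The lines of SMAD1, SMAD5, SMAD2 and SMAD4 cross, while SMAD3 stays at rank 5 and SMAD9 at rank 6 throughout.

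SMAD9 made up 1.1% and 1.25% of the summed BMP-branch RPKM without dox and 4.37% and 5.54% with dox. The means were 1.17% ± 0.108 and 4.96% ± 0.829 (SD, n = 2), a difference of 3.78 percentage points. As a share of reads, without any length, it was 20 of 1480 (1.35%, Clopper-Pearson 95% interval 0.827% to 2.08%) and 24 of 1492 (1.61%, 1.03% to 2.38%) without dox. With dox it was 60 of 1035 (5.8%, 4.45% to 7.4%) and 96 of 1350 (7.11%, 5.8% to 8.61%). These intervals also cover counting error only and are no test between the groups. The choice of length moved the level of the share more than its ratio. A gene's length is the same in both groups and nearly cancels from the ratio, so this was set by the measure. With dox the mean share ranged from 4.96% to 8.76% across the length choices, but the ratio of dox to no dox only from 4.22 to 4.36.

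SMAD1 and SMAD5 made up nearly all of the remainder. The SMAD1 share of BMP-branch RPKM was 52.6% and 56.7% without dox and 58.5% and 55.1% with dox, and the groups overlapped. The SMAD5 share was 46.3% and 42.1% without dox and 37.1% and 39.4% with dox, lower in both dox samples. The 3 shares sum to the whole, so a higher share of one gene lowers the others without a change in their own level.

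The summed BMP-branch RPKM was 13.9 and 15.7 in the no dox samples against 16.1 and 17.1 in the dox samples, a difference of means of 1.82. Of this, SMAD1 contributed 1.33 RPKM, SMAD9 0.651 and SMAD5 -0.161. The other length choices also scaled depth by the library totals, which differ from the authors' RPKM scaling. By these choices the branch sum of dox replicate 1 lay below that of no dox replicate 2, so the groups overlapped. How much of that overlap came from length and how much from depth scaling was not tested. The order of the SMAD1 and SMAD9 parts was also not stable. By RPKM and by canonical transcript length the SMAD1 part was the larger, whereas by all annotated exons, by coding length, or by RPKM without no dox replicate 1 the SMAD9 part was the larger.

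**Figure D4:**
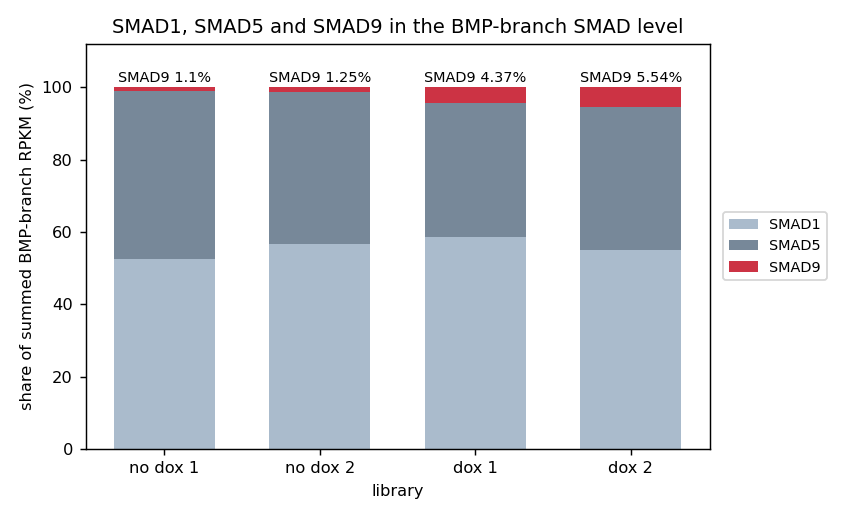
Share of the summed BMP-branch RPKM held by SMAD1, SMAD5 and SMAD9 in each library, in percent, with the SMAD9 share printed above each bar. SMAD9 takes 1.1% and 1.25% of the no dox bars and 4.37% and 5.54% of the dox bars, and SMAD1 and SMAD5 take the rest.

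In the TGF-β branch the SMAD3 share of the summed SMAD2 and SMAD3 RPKM was 20.3% and 22.8% without dox and 21.7% and 17.6% with dox. The groups overlapped, with means of 21.5% ± 1.76 and 19.7% ± 2.89. The branch sum was 8.94 and 8.52 RPKM without dox and 9.27 and 8.13 with dox, again with overlap.

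The BMP branch held 60.8% and 64.8% of the summed receptor-regulated SMAD RPKM without dox and 63.5% and 67.7% with dox. The groups overlapped. This balance depended strongly on gene length, because SMAD2 is so long, and by coding length the BMP branch held 20.4% without dox and 21.6% with dox. SMAD9 alone held 0.667% and 0.81% of the receptor-regulated sum without dox and 2.77% and 3.76% with dox. SMAD4 stood at 33.3% and 30.1% of that sum without dox and at 25.6% and 29.5% with dox. By RPKM both dox values were lower, but by coding length dox replicate 1 stood at 14.4% and the other 3 libraries at 17.4%, so that only dox replicate 1 was set apart.

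ENSG00000289868, antisense to SMAD4, was not among the genes counted, so its reads are not known. The other annotated genes that overlap the members held fewer reads than the members they overlap. The most were those of ENSG00000259347, antisense within SMAD3, at 31 and 11 reads in the no dox samples and 20 and 14 in the dox samples. MTCO2P2, a pseudogene within SMAD2 on the same strand, had 7, 1, 9 and 9 in the same order. SMAD9-IT1, within SMAD9 on the same strand, and the antisense genes SMAD1-AS1 and SMAD1-AS2 had 0 reads in all 4 libraries. SMAD5-AS1 had at most 2. ENSG00000267699, a readthrough gene that shares exons with SMAD4, also had at most 2, and it was the only other gene to hold exact 50-base runs of the SMAD4 transcript (8.25% of its runs). SMAD1 had the largest share of such runs, 11.1%, all of them in SMAD1-AS1. The share was 1.78% for SMAD2, 0.69% for SMAD9, 0.402% for SMAD5 and 0 for SMAD3. Whether counting used strand is not known, so reads of a member and of its antisense partner cannot be told apart.

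None of the tested genes around SMAD9 was called, where 0.0371% of all genes tested were called, so these counts say little about the neighbours. Of 7 other protein-coding genes that start within 500 kb of the SMAD9 start, 5 could be tested and 0 were called, with a median log2 fold change of -0.15. ALG5, a glucosyltransferase of N-glycan assembly, had the lowest adjusted p of these (-0.33, adjusted p = 0.468, limma), and 1 of the 5 had an unadjusted p under 0.05, where 9.28% of all genes tested did. CSNK1A1L, with 35 and 32 reads in the no dox samples and 34 and 31 in the dox samples, had the highest fold change at 0.35 ± 0.34. Around SMAD4, 5 of 6 genes could be tested and 0 were called, with log2 fold changes from -0.39 to 0.25. Near SMAD2 ZBTB7C was too low to test, at 12 reads or fewer.

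The 3 genes whose profile over the 4 libraries lay nearest to that of SMAD9 were CCR8, CES1P2 and GBP1, among 12343 candidates whose counts averaged 50 or more. Nearness was the Euclidean distance of log2 CPM centred on each gene's own mean, and it was 0.42 for CCR8, 0.51 for CES1P2 and 1.04 for GBP1. CCR8, a chemokine receptor gene, was counted at 26 and 37 reads in the no dox samples and at 95 and 106 in the dox samples. CES1P2, a carboxylesterase pseudogene, had 56, 55, 108 and 169 in the same order, and its reads may be shared with CES1 family genes. GBP1, an interferon-inducible GTPase gene, had 327, 328, 428 and 659. These were also the other 3 genes called higher with dox. With 4 libraries such likeness rests mainly on the step between the groups.

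The genes that act on SMAD proteins were read in 7 lists of 76 genes, of which 69 could be tested. None was called, 5 (7.25%) had an unadjusted p under 0.05, and the median log2 fold change was -0.01. Over all genes tested 0.0371% were called and 9.28% had an unadjusted p under 0.05. With so few genes called anywhere, a count of 0 called, here or in a list below, says little about the list. edgeR and DESeq2 also called 0 of these genes. The groups did not overlap for 30 of the 69, or 43.5%, near the 38.6% of all genes.

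The inhibitory SMADs compete with the receptor-regulated SMADs for receptors and recruit ubiquitin ligases, and both are known feedback targets. SMAD6 was counted at 29 and 41 reads in the no dox samples and at 46 and 43 in the dox samples, higher in both dox samples once depth was taken into account. Its log2 fold change was 0.77 ± 0.34 (adjusted p = 0.503, limma), with an interval from 0.05 to 1.49. SMAD7 was counted at 87 and 55 reads in the no dox samples and at 51 and 71 in the dox samples, and its groups overlapped at a log2 fold change of 0.21 ± 0.28 (adjusted p = 0.875). Neither passed the test over all genes.

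Of the 12 receptor genes 8 could be tested, 0 had an unadjusted p under 0.05 and the median log2 fold change was -0.01. ACVRL1, BMPR1B, ACVR1C and AMHR2 were too low to test. ACVR1B, an activin type I receptor, had the value furthest from 0 at -0.44 ± 0.43 and rested on 18 reads in dox replicate 1 against 62 to 74 in the other libraries. TGFBR1 and TGFBR2, the type I and type II receptors of TGF-β, lay at 0.04 ± 0.12 and 0.11 ± 0.14.

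The 12 genes that anchor SMADs at membranes or carry them through the nuclear pore were all tested, 0 were called and 0 had an unadjusted p under 0.05, with a median of -0.10. ZFYVE9, the anchor of SMAD2 and SMAD3 on endosomes, was counted at 338 and 416 reads in the no dox samples and at 200 and 255 in the dox samples, with a log2 fold change of -0.26 ± 0.18 (adjusted p = 0.705). IPO8, an importin known to carry SMADs into the nucleus, had an interval from -0.24 to 0.23, centred near 0. The exportins XPO1 and XPO4 lay on opposite sides of 0, at -0.15 ± 0.11 and 0.28 ± 0.18.

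All 16 ubiquitin ligases and deubiquitinases were tested and 0 were called, with a median of -0.02. NEDD4L, a ligase of activated SMAD2 and SMAD3, was counted at 627 and 589 reads in the no dox samples and at 502 and 625 in the dox samples, which in RPKM was 2.34 and 2.36 against 2.89 and 3.02. Its groups did not overlap and its log2 fold change was 0.35 ± 0.13, but it did not pass the test over all genes (adjusted p = 0.437, limma). SMURF1, which targets BMP-branch SMADs, lay at 0.20 ± 0.20, and SMURF2 at -0.02 ± 0.15. RNF111, a ligase that removes SMAD repressors, lay at 0.16 ± 0.15.

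All 11 kinases and phosphatases were tested and 0 were called, with a median of -0.20. Of these, 7 lay below 0 and the groups did not overlap for 8 (72.7%, against 38.6% of all genes), while 1, the phosphatase PDP1, had an unadjusted p under 0.05. PDP1 was counted at 2000 and 1859 reads in the no dox samples and at 1019 and 1297 in the dox samples, with a log2 fold change of -0.26 ± 0.12 (adjusted p = 0.52). The SMAD phosphatases PPM1A, CTDSP1, CTDSP2 and CTDSPL lay at -0.22, -0.24, -0.32 and -0.22. Each of the 4 had an interval that included 0. MTMR4, the remaining phosphatase of the list, lay on the other side of 0 at 0.13 ± 0.13.

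All 11 co-repressors were tested and 0 were called, with a median of 0.09, and ZEB1 and TOB1 had an unadjusted p under 0.05. TOB1, a repressor of BMP-branch SMAD activity, was counted at 2660 and 2299 reads in the no dox samples and at 1266 and 1465 in the dox samples. Its log2 fold change of -0.38 ± 0.11 had the lowest adjusted p of all the lists, 0.306 (limma). ZEB1, a zinc finger protein that binds SMADs, lay at 0.33 ± 0.15 (adjusted p = 0.528). SKIL, a repressor that is also a TGF-β target, lay at 0.09 ± 0.13.

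Of the 12 co-activators and DNA-binding partners 9 could be tested, 0 were called and 0 had an unadjusted p under 0.05, with a median of 0.05. FOXH1, the partner of SMAD2 in nodal and activin signaling, had 0 reads in every library. A count of 0 still allows an expected count of up to about 3 reads in a library. ZNF423, a BMP-branch partner, had 1 read in all. The acetyltransferases EP300 and CREBBP lay at -0.19 ± 0.17 and 0.12 ± 0.21.

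**Figure D5:**
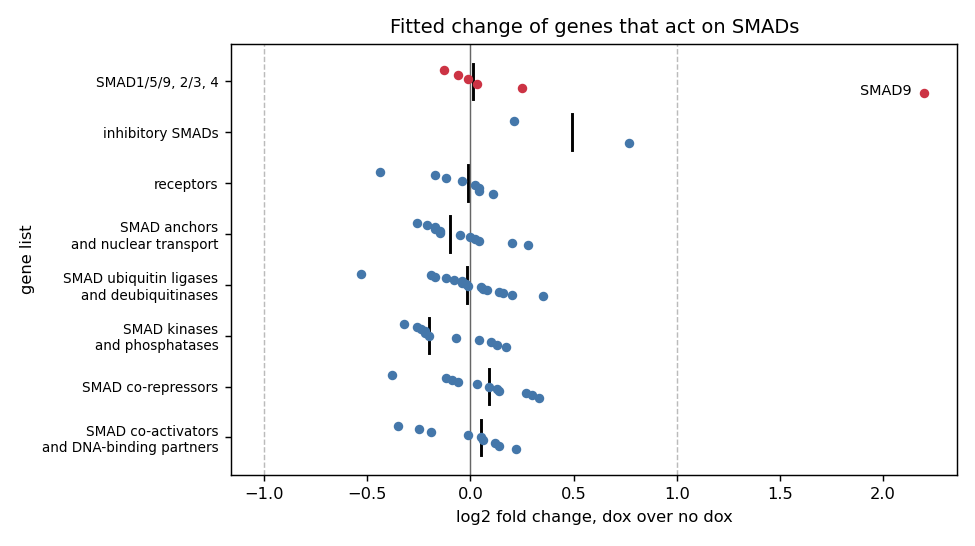
Fitted log2 fold change of dox over no dox for the 6 SMAD genes (red) and for each tested gene of the 7 lists of genes that act on SMADs (blue), with a black line at the median of each row and dashed lines at 2-fold. SMAD9 lies at 2.20, and all 69 tested list genes lie between -0.53 and 0.77.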

How the data were processed

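For these files the authors discarded reads from ribosomal RNA, mapped the remaining single-end 50-base reads to GRCh38 by GSNAP and obtained exon-level read sums per gene by HTSeqGenie. The deposited counts are whole numbers per gene, and the deposited RPKM values are scaled by gene length and depth. Relative to no dox replicate 1 the authors' RPKM scaling was 0.932, 0.649 and 0.771 for the other libraries (no dox 2, dox 1, dox 2), where the totals stood at 0.869, 0.653 and 0.699. The methods name a RefSeq annotation but the identifiers are Ensembl ones, 2 library kits are described without a link to samples, and use of strand is not given in the sources used here. Symbols came from GENCODE release 44 (57532 of 58302 identifiers).

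Groups came from the sample labels. Genes were kept by filterByExpr (edgeR 4.0.16), and dox was compared with no dox by voom with quantile normalization, lmFit and eBayes (limma 3.58.1, run in R 4.3.3) with the group as the only term. The study's methods name these steps and the contrast but not the model's terms. The steps were tested on simulated data with known changes, all well above 2-fold. How they handle changes near 2-fold or smaller was not tested. Other scalings, filters, RPKM with pseudocounts of 0.1 and 1, edgeR's quasi-likelihood test, DESeq2 1.42.0, a replicate block and leaving out each sample were tried. No library repeated another (chi-square per degree of freedom of at least 8.18 between any pair). The members, gene lists, motifs and rules were chosen with earlier results of these data known. Named were MIB1, the members, genes of the lists, overlapping genes, protein-coding genes starting within 500 kb of SMAD9, SMAD2 or SMAD4, cell type markers, and the 3 genes nearest to SMAD9 in profile. Coding identity was taken from global alignments (Biopython 1.88). Proteins were not analysed here.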

Additional observations from a re-analysis of the deposited data

How the results depend on the processing

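The main fit called 6 genes, and SMAD9 was among the genes called in 6 of the 9 alternatives that kept all samples. Without a filter 0 of 28798 genes were called (2092 at an unadjusted p under 0.05), and 0 with log2(RPKM + 0.1) (1442) or log2(RPKM + 1) (1438). Leaving out each sample in turn called 0 genes each time (833 to 1042 at an unadjusted p under 0.05). There the lone sample of a group was assumed to vary like the pair of the other group. edgeR called 6 genes and DESeq2 5, and dropping the fold threshold gave 11. The log2 fold change of SMAD9 was 1.75 with log2(RPKM + 0.1) and 0.63 with log2(RPKM + 1), scales that shrink low genes, and 1.95 to 2.46 with a sample left out. No list gene was called under any of the 13 alternatives (1 to 10 at an unadjusted p under 0.05).

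Both groups carry the same replicate numbers, whose meaning the labels leave unstated. Same-numbered samples deviated together at r = 0.134 over 16181 genes, which with 2 pairs does not show a pairing. The fit with the replicate block called 78 genes, and SMAD9 lay at 2.19. It put 3276 genes at an unadjusted p under 0.05 (limma), where the main fit put 1501. Since a pairing is not known, nothing is read from the smaller p-values of the block fit.

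The SMAD9 share difference of 3.78 percentage points was 6.69 by all annotated exons, 4.97 without a length and, by choices added after seeing the data, 4.95 by coding length and 4.35 by canonical transcript. With a sample left out it was 3.2 to 4.37. The SMAD3 share difference of -1.84 ranged from -3.88 to 0.203, and the BMP-branch difference of 2.8 from 0.66 to 4.94. With 20 to 96 reads, SMAD9 is the member whose level depth limits most.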
